A study of Mus musculus with 12 samples.

Results

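The acute phase genes described here are 36 of the 54532 gene IDs in the deposited expression table of mouse liver. They were chosen by name from the acute phase proteins of the liver, with serum amyloid A and complement genes left out. As grouped here, 31 are positive members (meant to rise in inflammation) and 5 are negative members (meant to fall). The grouping was not checked gene by gene for the mouse, so a positive member that fell need not be unusual. Most of the 36 encode plasma proteins, and Il1r1 and Steap4 encode membrane proteins. Each of the 36 symbols matched a single ID. The test described below took in 35 of them, because Il1rn was under 1 FPKM in all but 1 library.

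The 12 libraries were made from liver RNA of wild-type (WT) mice of the inbred strain C57BL/6J, with 3 in each of 4 groups. A diet is called CD, an abbreviation left unexplained by the labels, and the other is a high-fat diet (HFD). Either was given alone or with 2% dextran sulfate sodium (groups CD_DSS and HFD_DSS). Dextran sulfate sodium (DSS), a polymer toxic to the lining of the colon, is used to provoke colitis in mice, and the series title places the study in liver-gut crosstalk and colitis under a high-fat diet. All 4 groups share strain and genotype. Nothing in the sources used here states sex, age, the route and length of DSS, or that libraries of a group were of different animals. The p-values therefore reflect how far these samples vary, and part or all of that may be technical. Levels are FPKM, fragment counts scaled to the exon length of the gene and to the library, which allow levels of different genes to be compared per length, and values of 3 libraries are given in the order of their numbers. HFD 1, CD_DSS 1 and HFD_DSS 2 stood apart from their groups for many of these genes, and the main counts are given with and without them. Depth was 23.4 to 29.4 M recovered fragments per library. All 8 hepatocyte markers on the list used were present, with a summed level of 2991 to 4630 FPKM per library.

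In the acute phase response, hepatocytes change which plasma proteins they make when inflammatory cytokines reach the liver. Interleukin-6 acts through its receptor, JAK kinases and the transcription factor STAT3, interleukin-1 acts through NF-kB, and C/EBP factors act with both. Products that rise include clotting proteins, carriers of heme and metals, protease inhibitors and pentraxins, while carriers such as albumin and transthyretin are known to fall. In mice the pentraxin serum amyloid P (Apcs) is a strong responder and C-reactive protein (Crp) a weak one, and the reverse holds in humans.

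Promoter sequence is shown for genes on which the results turn: the 3 fibrinogen chains, which moved together, and Apcs and Orm2, which had large fold changes. The sequences are RefSeq promoter windows of the build GRCm38, written 5′ to 3′ on the strand of the gene. Those of Fga, Fgb, Fgg and Orm2 end at the base before the GENCODE gene, and that of Apcs ends at its RefSeq start, which leaves 13 bases to the GENCODE gene. For Fga the RefSeq start lies inside the GENCODE gene, so the last 77 bases of its window are not shown. Capitals mark matches, on either strand, to the letters TTCNNNGAA (a STAT motif), CTGGGAA (an interleukin-6 response element core), TTGCNNAA (a C/EBP motif) or GGGNNTTCC (an NF-kB motif). The windows are chr3:83025903-83026075 (plus strand) for Fga, chr3:83049864-83050113 (minus strand) for Fgb, chr3:83007474-83007723 (plus strand) for Fgg, chr1:172895055-172895304 (minus strand) for Apcs and chr4:63362199-63362448 (plus strand) for Orm2.
Fga: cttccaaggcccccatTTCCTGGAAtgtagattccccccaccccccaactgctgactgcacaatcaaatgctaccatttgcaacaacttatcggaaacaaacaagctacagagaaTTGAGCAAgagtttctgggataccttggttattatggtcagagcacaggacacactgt
Fgb: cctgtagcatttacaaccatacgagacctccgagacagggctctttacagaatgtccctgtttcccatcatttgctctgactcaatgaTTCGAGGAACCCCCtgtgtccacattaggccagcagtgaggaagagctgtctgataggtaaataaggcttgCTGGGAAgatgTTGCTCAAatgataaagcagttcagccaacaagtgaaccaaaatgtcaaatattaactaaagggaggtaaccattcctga
Fgg: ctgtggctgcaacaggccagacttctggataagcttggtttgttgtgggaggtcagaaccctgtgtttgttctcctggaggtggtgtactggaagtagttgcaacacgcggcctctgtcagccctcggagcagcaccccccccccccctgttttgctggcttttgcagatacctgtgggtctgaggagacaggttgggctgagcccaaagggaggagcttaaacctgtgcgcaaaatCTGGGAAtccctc
Apcs: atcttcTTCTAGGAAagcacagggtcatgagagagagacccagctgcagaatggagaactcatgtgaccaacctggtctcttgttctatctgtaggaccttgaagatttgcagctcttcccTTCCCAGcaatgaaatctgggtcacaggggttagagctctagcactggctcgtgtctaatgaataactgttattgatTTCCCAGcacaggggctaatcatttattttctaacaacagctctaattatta
Orm2: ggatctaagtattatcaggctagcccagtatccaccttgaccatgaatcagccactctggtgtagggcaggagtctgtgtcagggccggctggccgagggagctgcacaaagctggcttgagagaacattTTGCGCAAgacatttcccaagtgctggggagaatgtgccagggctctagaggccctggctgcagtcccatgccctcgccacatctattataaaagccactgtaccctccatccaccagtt

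Counted from the RefSeq start to the first base of a match, Fga had a STAT match at -234 and a C/EBP match at -135. Both Fga positions count the 77 bases that are not shown. Fgb had a STAT match at -162 that overlapped an NF-kB match at -157, an interleukin-6 element core at -91 and a C/EBP match at -80. Fgg held only the element core, at -13, Apcs a STAT match at -244 and 2 element cores at -129 and -52, and Orm2 a C/EBP match at -120. Among 36 promoters of 30 of the acute phase genes, 16 (44.4%) held the C/EBP letters within 250 bases before the RefSeq start, against 9.56% of 32851 mouse promoters. Ttr, on chromosome 18, was left out of these promoters, and Hp, Fgl1, Orm1, Serpina3k and Serpina3m had none. The 16 include the near copies Orm2 and Orm3, and Serpina1b, Serpina1d and Serpina1e. The matching windows of Ahsg, Itih2, Lcn2, Rbp4, Serpina1b and Serpina1e lie wholly inside the GENCODE gene. The element core was in 9 (25%), against 9.10%, but these belong to 7 genes, because 3 are windows of Il1rn, of which 2 overlap and share a match. The STAT letters were in 6 (16.7%) against 7.02% and the NF-kB letters in 3 (8.33%) against 4.98%. The HNF1 motif was in 1 (2.78%), that of Cp, against 0.371%. These are matches of letters and do not show binding, and the absence of a match speaks only of the window.

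Averaged over both diets, 24 of the 36 acute phase genes were higher with DSS and 3 were lower, while 8 did not pass the test and 1 was not tested. Over all 10806 genes tested, 20.0% passed in either direction, 8.72% upward and 11.2% downward. The test was limma's on log2(FPKM + 1), with p-values adjusted over all genes tested and a threshold of 0.05, and fold changes are of FPKM + 1. The median log2 fold change of the 35 genes tested was 1.19, against -0.01 over all genes tested. Among the 31 positive members, 22 rose, 2 fell (Serpina3k and Serpina1d) and 6 did not pass. Among the 5 negative members, Rbp4 fell, Ahsg and Fetub rose, and Alb and Ttr did not pass. Of the 27 calls, 19 were kept with any 1 library left out. With no filter on low values, 14 passed and each was higher, so that Serpina3k, Serpina1d and Rbp4 no longer passed, where 2.42% of 25911 genes were higher and 3.42% lower. In whole liver, fewer cells of a type and less RNA per cell cannot be told apart. With TPM scaling the counts of these genes were again 24 up and 3 down, while the share of upward calls over all genes moved from 43.7% to 58.3%.

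As a share of summed FPKM, the 36 genes made up 19.2 ± 0.889% in CD (mean ± SD, n = 3), 17.8 ± 1.15% in HFD, 25.2 ± 3.58% in CD_DSS and 24.6 ± 4.12% in HFD_DSS. The 6 untreated libraries lay between 16.8 and 20.2% and the 6 DSS libraries between 20.8 and 29.0%, with no overlap. The 31 positive members alone took 9.12, 8.97 and 9.51% in CD, 11.7, 8.04 and 8.52 in HFD, 8.61, 14.9 and 16.6 in CD_DSS and 18.7, 12.5 and 18.3 in HFD_DSS. CD_DSS 1 lay within the untreated range there, and HFD 1 lay above the other 5 untreated libraries. Alb took 3.96 to 10.2% in single libraries, with the lowest in HFD_DSS 3 and the highest in CD_DSS 1.

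**Figure D1:**
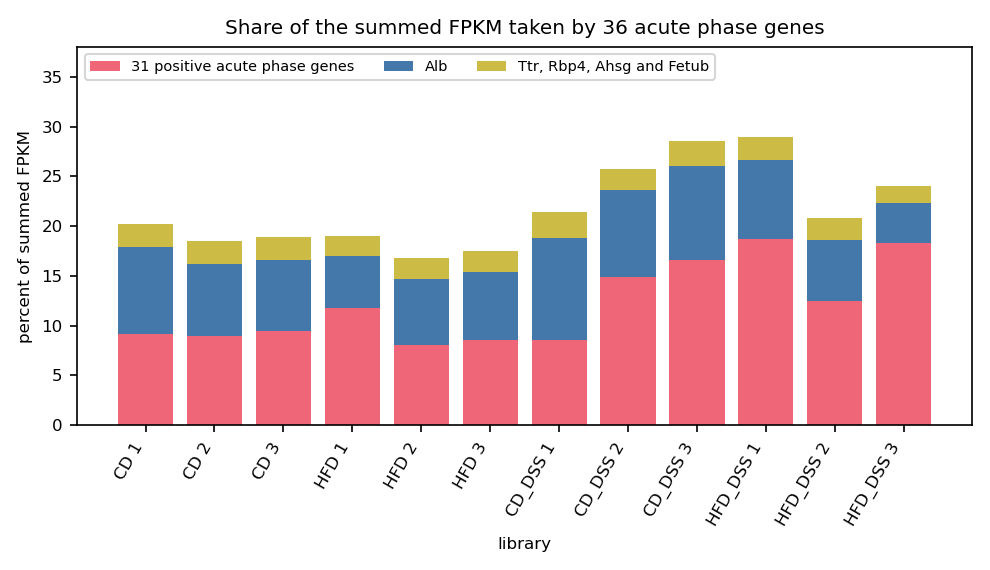
Percent of the summed FPKM of each library (bar height) taken by the 31 positive acute phase genes, by Alb and by the 4 other negative members, for the 12 libraries in group order. The full bars reach 16.8 to 20.2% without DSS and 20.8 to 29.0% with DSS, and the positive part of CD_DSS 1 (8.61%) is at the level of the untreated libraries.

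Libraries of a group were not alike for these genes. Over the 24 genes that rose, CD_DSS 1 was the lowest CD_DSS library in 24 and was at or under the highest CD library in 10. HFD 1 was the highest HFD library in 21 and above CD_DSS 1 in 17, and HFD_DSS 2 was the lowest HFD_DSS library in 23. The other 4 DSS libraries were all above all 6 untreated libraries in 23 of the 24. The 24 genes and the DSS libraries set aside were picked on these same values. That count is therefore only a description, and its share over all genes was not taken. All 6 DSS libraries were above all 6 untreated ones in 4 (Cp, Itih1, Itih4 and Serpina3m), and below them in 3 (Serpina1d, Serpina3k and Rbp4). Over all genes tested, 2.74% were above and 3.85% below in this way. Leaving out HFD 1, CD_DSS 1 and HFD_DSS 2, 25 of these genes passed upward and 4 downward, where 13.8% and 17.4% of all genes did. Those 3 libraries were picked after their values were seen and for where they lay on these genes, so those counts only describe the other 9 libraries.

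**Figure D2:**
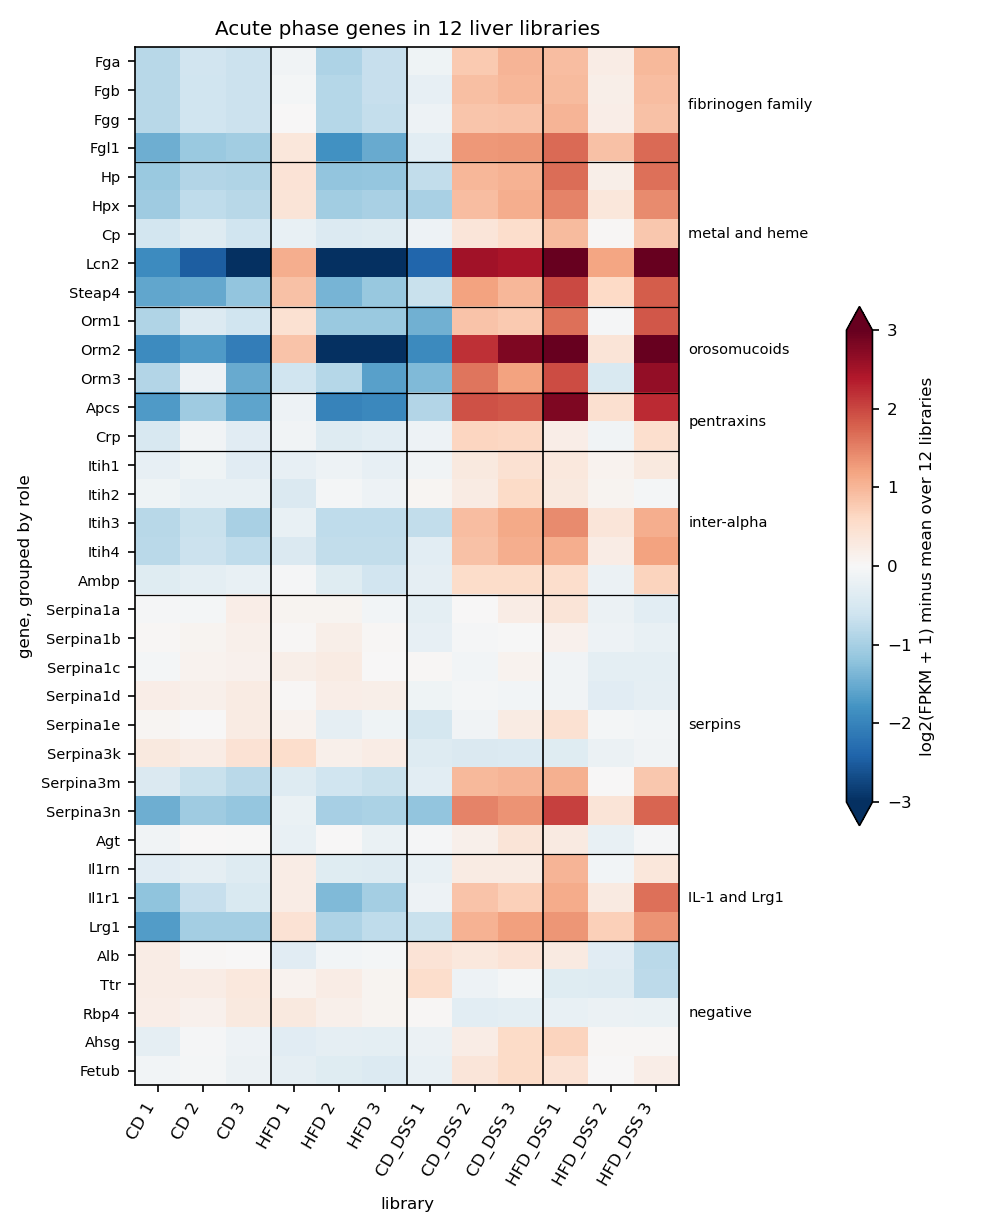
Level of the 36 genes (rows, grouped by role) in the 12 libraries (columns), as log2(FPKM + 1) minus the mean of the gene over all libraries, with the colour scale closed at -3 and 3. The DSS columns are red and the untreated ones blue for most positive members, while HFD 1, CD_DSS 1 and HFD_DSS 2 are pale, and the Serpina1 rows and the negative members stay near 0.

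The 3 chains of fibrinogen, the precursor of the fibrin clot, rose to a like extent. Fga, the alpha chain, had 1556, 1868 and 1761 FPKM in CD, 2558, 1454 and 1698 in HFD, 2539.7, 4725 and 5593 in CD_DSS and 5259, 3225 and 5382 in HFD_DSS. The DSS libraries overlapped the untreated ones only through HFD 1 and CD_DSS 1. Fga rose 2.40-fold, with log2 fold change 1.26, SE 0.22, limma adjusted p = 0.00434, and it was the acute phase gene that passed upward on CD alone and was also among those that passed on HFD. Fgb, the beta chain, had 1114, 1308 and 1267 FPKM in CD, 1894, 1096 and 1227 in HFD, 1671, 3672 and 3926 in CD_DSS and 3832, 2236 and 3737 in HFD_DSS, and rose 2.34-fold with log2 fold change 1.23, SE 0.23, limma adjusted p = 0.00609. Fgg, the gamma chain, had 1496, 1773 and 1718 FPKM in CD, 2688, 1486 and 1641 in HFD, 2397, 4756 and 4895 in CD_DSS and 5479, 3099.9 and 4931 in HFD_DSS, and rose 2.32-fold with log2 fold change 1.21, SE 0.22, limma adjusted p = 0.00535. The genes lie side by side on chromosome 3 from 83007724 to 83049863 (GRCm38), and Fgb is read from the opposite strand to Fga and Fgg. Per length, the ratio of Fgb to Fga was 0.658 to 0.777 and that of Fgg to Fga 0.875 to 1.05 in the 12 libraries, a narrow range beside the change in level. Antisense Gm30097 covers 5.5% of the exon bases of Fgg, and no source used here says whether the counting used strand.

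Fgl1, a hepatocyte-secreted protein of the fibrinogen family, is not a clot chain. Its level was 52.2, 67.4 and 70.3 FPKM in CD, 186, 41.0 and 50.3 in HFD, 117, 363 and 364 in CD_DSS and 476, 270.2 and 474 in HFD_DSS. All 3 libraries of each DSS group were above all 3 of their own diet group, but HFD 1 was above CD_DSS 1. Fgl1 rose 4.58-fold, with log2 fold change 2.19, SE 0.39, limma adjusted p = 0.0048, beside 2.32 to 2.40-fold for the fibrinogen chains. The 4 genes of the fibrinogen family kept their calls with any 1 library left out.

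Of 5 genes that handle heme, metals or siderophores, Hp, Hpx, Cp, Lcn2 and Steap4, all rose. Hp (haptoglobin, which binds free hemoglobin) had 1636, 1940.5 and 1890.1 FPKM in CD, 4734, 1571 and 1589 in HFD, 2141, 7112 and 7301 in CD_DSS and 11252, 4019.8 and 11059 in HFD_DSS. Hpx (hemopexin, which binds free heme) had 2409.7, 2969.6 and 2858 FPKM in CD, 6673, 2440.1 and 2572 in HFD, 2596, 9585 and 10850.5 in CD_DSS and 14293, 6386 and 13592 in HFD_DSS, with rank 4 of all genes by mean level. In both, HFD 1 was above CD_DSS 1 and HFD_DSS 2, so the groups with and without DSS overlapped. Hp rose 3.04-fold with log2 fold change 1.60, SE 0.40, limma adjusted p = 0.0182, and Hpx rose 2.70-fold with log2 fold change 1.43, SE 0.39, limma adjusted p = 0.0254. The ratio of Hpx to Hp stayed between 1.21 and 1.62. The Hpx call was kept without 5 of the 12 libraries and lost without CD 1, HFD 2, HFD 3, CD_DSS 2, CD_DSS 3, HFD_DSS 1 or HFD_DSS 3, with a highest limma adjusted p of 0.0648.

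Cp, the copper-carrying ferroxidase ceruloplasmin, had 117, 132 and 113 FPKM in CD, 147, 130.4 and 131 in HFD, 155, 224 and 249 in CD_DSS and 334, 178 and 303 in HFD_DSS. Every DSS library was above every untreated one, and Cp rose 1.81-fold with log2 fold change 0.85, SE 0.16, limma adjusted p = 0.00573. Lcn2, or lipocalin-2, which sequesters bacterial siderophores, spanned a wide range, 3.72, 2.11 and 0.904 FPKM in CD, 35.8, 1.18 and 0.746 in HFD, 2.35, 99.0 and 94.4 in CD_DSS and 366, 38.3 and 423 in HFD_DSS. Without DSS it was near 1 to 4 FPKM except for HFD 1, which lay close to HFD_DSS 2, and CD_DSS 1 was inside the CD range. Lcn2 rose 19.2-fold, with log2 fold change 4.26, SE 1.04, limma adjusted p = 0.0162, an interval from 1.99 to 6.54 on the log2 scale. Steap4, a membrane metalloreductase induced by cytokines, had 39.5, 40.1 and 51.1 FPKM in CD, 218, 44.0 and 52.7 in HFD, 73.2, 272 and 234 in CD_DSS and 467, 178 and 413 in HFD_DSS. HFD 1 was above CD_DSS 1 and HFD_DSS 2, and Steap4 rose 3.91-fold with log2 fold change 1.97, SE 0.44, limma adjusted p = 0.0116.

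**Figure D3:**
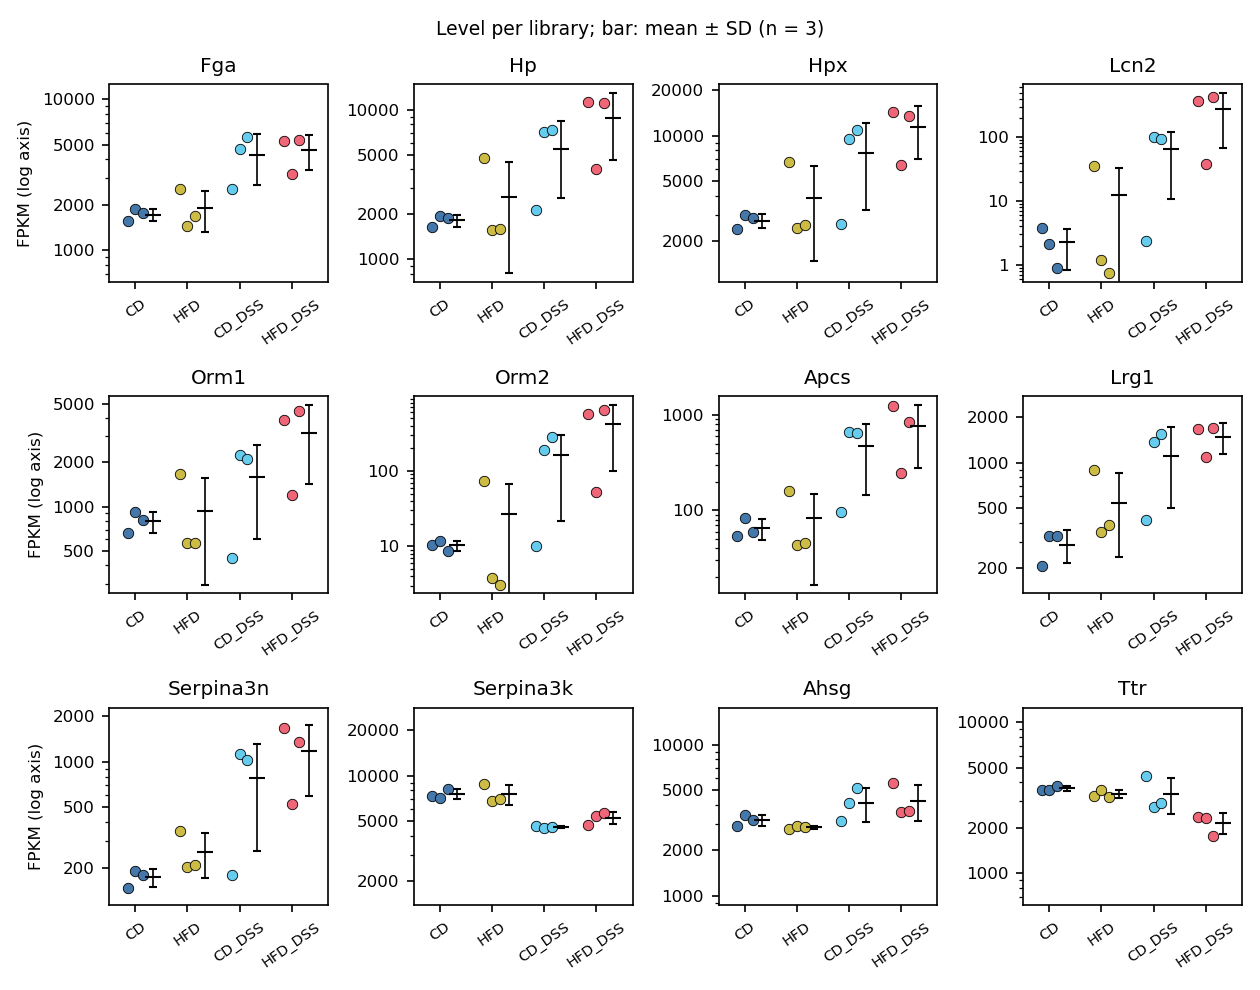
FPKM (log axis, a scale per gene) of 12 of the acute phase genes in each library (dots) of the 4 groups, with mean ± SD (n = 3) as a bar beside the dots; the lower bars of Lcn2 and Orm2 in HFD run off the axis because the SD exceeds the mean. From Fga to Serpina3n the lowest CD_DSS dot is CD_DSS 1 and the highest HFD dot is HFD 1, and all DSS dots of Serpina3k are below the untreated ones.

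Orosomucoids (alpha-1-acid glycoproteins) are acidic lipocalins of plasma that bind drugs and lipids. Orm1 was the main form, with 659.9, 918 and 814 FPKM in CD, 1675, 564 and 571 in HFD, 449.9, 2235 and 2118 in CD_DSS and 3850.1, 1192 and 4435 in HFD_DSS. Its difference did not pass, with log2 fold change 1.22, SE 0.47, limma adjusted p = 0.0897 and an interval from 0.19 to 2.26. CD_DSS 1 was under every CD library, and HFD 1 was above HFD_DSS 2. Orm2 had 10.3, 11.8 and 8.78 FPKM in CD, 73.4, 3.78 and 3.11 in HFD, 9.99, 188 and 286 in CD_DSS and 572, 53.0 and 650.1 in HFD_DSS, and rose 13.4-fold with log2 fold change 3.75, SE 0.98, limma adjusted p = 0.0226. CD_DSS 1 was inside the CD range, and HFD 1 was above HFD_DSS 2. Orm3 had 0.950, 2.19 and 0.247 FPKM in CD, 1.36, 0.961 and 0.161 in HFD, 0.434, 9.76 and 7.19 in CD_DSS and 12.9, 1.58 and 21.1 in HFD_DSS, the lowest of them from 3 recovered fragments. Its rise, log2 fold change 1.87, SE 0.59, limma adjusted p = 0.046, passed narrowly and did not pass with limma-voom on recovered fragments (adjusted p = 0.182). The Orm2 call was kept without 6 of the 12 libraries and lost without HFD 2, HFD 3, CD_DSS 2, CD_DSS 3, HFD_DSS 1 or HFD_DSS 3, with a highest adjusted p of 0.0588. The Orm3 call was kept only without CD_DSS 1 or HFD_DSS 2, with a highest adjusted p of 0.107.

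The 3 Orm genes lie within 21.3 kb on chromosome 4 and their coding sequences are 86.1 to 89.9% identical, with identical runs of up to 104 bases, so reads of one can be counted to another and the split is uncertain. A stretch of 60 coding bases of each is shown because it is where they differ most, with capitals at the 25 positions that differ. The windows are chr4:63345089-63345148 for Orm1, chr4:63362964-63363023 for Orm2 and chr4:63356591-63356650 for Orm3, all on the plus strand of GRCm38 in the GENCODE transcripts.
Orm1: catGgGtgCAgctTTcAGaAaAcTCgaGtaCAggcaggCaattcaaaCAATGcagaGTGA
Orm2: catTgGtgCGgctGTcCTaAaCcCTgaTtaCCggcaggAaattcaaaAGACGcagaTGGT
Orm3: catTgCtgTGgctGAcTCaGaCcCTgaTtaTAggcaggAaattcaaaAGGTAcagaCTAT

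Orm2 made up 1.53, 1.26 and 1.07% in CD, 4.20, 0.664 and 0.542 in HFD, 2.17, 7.74 and 11.9 in CD_DSS and 12.9, 4.25 and 12.7 in HFD_DSS of the summed Orm FPKM. The 6 untreated libraries ranged from 0.542 to 4.20% and the 6 DSS libraries from 2.17 to 12.9%, overlapping through HFD 1 and CD_DSS 1. Orm1 remained at 86.8% or more in all 12.

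Pentraxins are ring-shaped proteins that bind microbes and cell debris. Apcs, serum amyloid P, had 53.8, 83.6 and 58.8 FPKM in CD, 159, 43.5 and 45.8 in HFD, 96.3, 662 and 649 in CD_DSS and 1231, 247 and 837 in HFD_DSS. The DSS libraries of each diet were above the untreated ones of that diet, and HFD 1 was above CD_DSS 1. Apcs rose 6.98-fold, with log2 fold change 2.80, SE 0.56, limma adjusted p = 0.00708. Crp had 111, 144 and 122 FPKM in CD, 143, 118 and 123 in HFD, 139, 242 and 239 in CD_DSS and 177, 144 and 219 in HFD_DSS. CD_DSS 1 was inside the CD range and HFD_DSS 2 at the level of HFD 1, and Crp rose 1.49-fold with log2 fold change 0.57, SE 0.15, limma adjusted p = 0.0252. The Crp call was kept without 4 of the 12 libraries, with a highest adjusted p of 0.0629. It was lost without CD 1, CD 3, HFD 2, HFD 3, CD_DSS 2, CD_DSS 3, HFD_DSS 1 or HFD_DSS 3. Per length, Apcs stood at 0.368 to 6.95 times the level of Crp, under 1 in 5 of 6 untreated libraries and in CD_DSS 1, and at 1.71 to 6.95 in the other 5 DSS libraries.

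The 4 genes named as heavy chains of the inter-alpha-trypsin inhibitor family all rose, and so did Ambp, the precursor of alpha-1-microglobulin and of the light chain bikunin. Itih4 had 491, 548 and 503 FPKM in CD, 632, 511 and 518 in HFD, 692, 1569 and 1819 in CD_DSS and 1829, 998 and 1978 in HFD_DSS. Every DSS library was above every untreated one, and Itih4 rose 2.61-fold with log2 fold change 1.38, SE 0.24, limma adjusted p = 0.00414. Itih3 had 219, 245 and 199 FPKM in CD, 332, 227 and 230.4 in HFD, 234, 739 and 857 in CD_DSS and 1039.5, 501 and 831 in HFD_DSS, with CD_DSS 1 in the CD range, and rose 2.64-fold with log2 fold change 1.40, SE 0.30, limma adjusted p = 0.00939. Itih1 rose 1.36-fold with log2 fold change 0.45, SE 0.10, limma adjusted p = 0.0108, and Itih2 rose 1.33-fold with log2 fold change 0.41, SE 0.11, limma adjusted p = 0.024. Itih1 went from 198 to 227 FPKM in the untreated libraries to 231 to 344 with DSS, without overlap. Itih2 had 332, 314 and 314 FPKM in CD, 268, 352.9 and 328 in HFD, 379, 436 and 544 in CD_DSS and 447, 389 and 351.9 in HFD_DSS. Its groups with and without DSS overlapped, because HFD_DSS 3 was under HFD 2. Itih1, Itih3 and Itih4 lie within 56.8 kb on chromosome 14. The ratio of Itih3 to Itih1 was 1.01 to 1.60 in the untreated libraries and 1.01 (CD_DSS 1) to 3.34 with DSS. Ambp had 1361, 1452 and 1518 FPKM in CD, 1717, 1363 and 1187 in HFD, 1469, 2590 and 2565 in CD_DSS and 2530, 1567 and 2823 in HFD_DSS. CD_DSS 1 was inside the CD range, and HFD_DSS 2 was under HFD 1. Ambp rose 1.54-fold, with log2 fold change 0.62, SE 0.18, limma adjusted p = 0.0376. The Itih2 call was kept without 8 of the 12 libraries and lost without CD 2, CD 3, CD_DSS 3 or HFD_DSS 1 (highest adjusted p 0.0593). The Ambp call was kept only without HFD 1, CD_DSS 1 or HFD_DSS 2 (highest adjusted p 0.0893).

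Serpins of the Serpina3 family, protease inhibitors related to human antichymotrypsin, moved in opposite directions. Serpina3n had 147, 191 and 179.8 FPKM in CD, 352, 202 and 209 in HFD, 178, 1136 and 1031 in CD_DSS and 1664, 525 and 1347 in HFD_DSS. Serpina3n rose 3.84-fold, with log2 fold change 1.94, SE 0.44, limma adjusted p = 0.0127, while CD_DSS 1 stayed in the CD range. Serpina3m had 167, 139.8 and 127 FPKM in CD, 171, 147 and 139.6 in HFD, 179, 441 and 456 in CD_DSS and 470.5, 227 and 395 in HFD_DSS. Every DSS library was above every untreated one, and Serpina3m rose 2.29-fold with log2 fold change 1.19, SE 0.24, limma adjusted p = 0.00774. Serpina3k, the form with the highest level, had 7389, 7142 and 8184 FPKM in CD, 8790.2, 6777 and 7053 in HFD, 4640.2, 4488 and 4594 in CD_DSS and 4746, 5379 and 5678 in HFD_DSS. Every DSS library, CD_DSS 1 included, was below every untreated one, and the level was 1.53-fold lower (log2 fold change -0.62, SE 0.10, limma adjusted p = 0.00315). All 3 calls were kept with any 1 library left out.

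**Figure D4:**
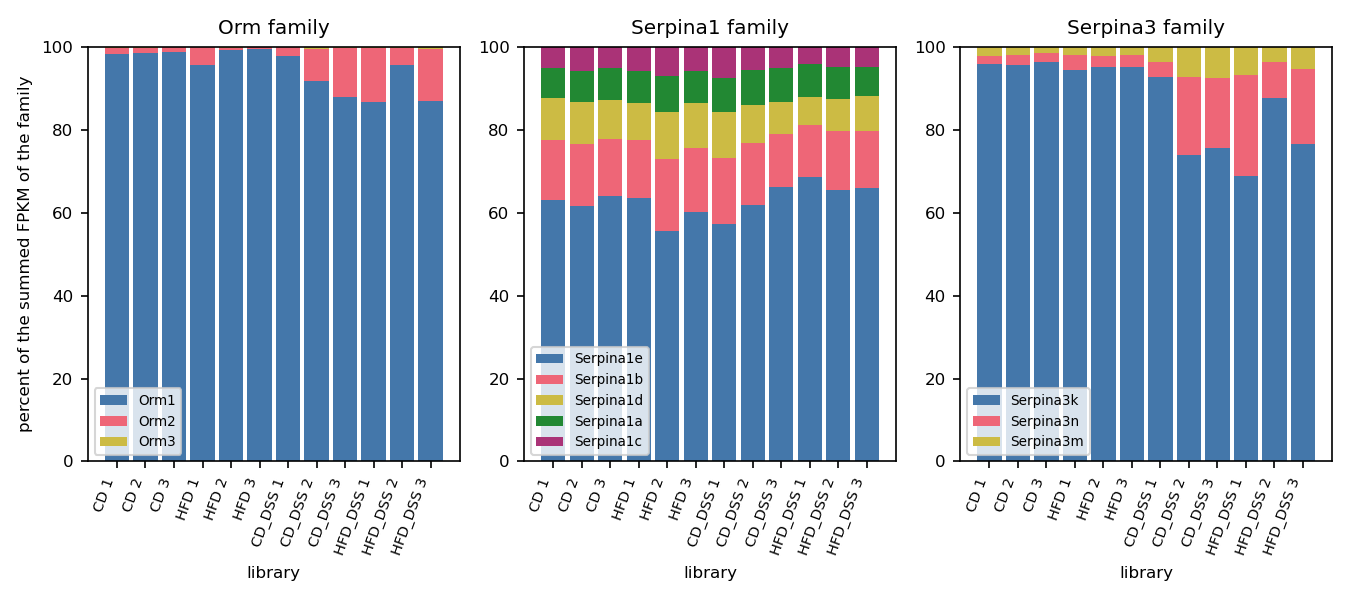
Share of each gene (colour) in the summed FPKM of the Orm, Serpina1 and Serpina3 families in the 12 libraries. Serpina3n takes 1.90 to 3.78% of its family without DSS and 3.57 to 24.2% with DSS, and Serpina1e stays at 55.7 to 68.6% of its own.

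The share of Serpina3n in the summed Serpina3 FPKM was 1.90, 2.55 and 2.12% in CD, 3.78, 2.83 and 2.82 in HFD, 3.57, 18.7 and 17.0 in CD_DSS and 24.2, 8.56 and 18.2 in HFD_DSS. CD_DSS 1 and HFD 1 were close to each other, and HFD_DSS 2 lay between them and the other DSS libraries. The coding sequences are 82.0 to 90.7% identical and the genes lie within 75.8 kb on chromosome 12, so the split of reads between them is uncertain, and Serpina3k and Serpina3m share 2.92% and 3.49% of their annotated exon bases. The 60 coding bases shown cover the start of the reactive centre loop, the part that meets the protease, with capitals at the 26 positions that differ. The windows, on the plus strand of GRCm38 in the GENCODE transcripts, are chr12:104345267-104345326 for Serpina3k, chr12:104393767-104393826 for Serpina3m and chr12:104413446-104413505 for Serpina3n.
Serpina3k: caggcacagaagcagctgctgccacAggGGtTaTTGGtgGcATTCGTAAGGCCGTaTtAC
Serpina3m: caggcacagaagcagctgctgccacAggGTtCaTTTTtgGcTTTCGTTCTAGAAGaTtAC
Serpina3n: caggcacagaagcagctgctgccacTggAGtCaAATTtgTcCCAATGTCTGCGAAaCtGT

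The 5 Serpina1 genes encode the mouse forms of alpha-1-antitrypsin, the plasma inhibitor of neutrophil elastase. Serpina1e was the main form and had 9122, 8706 and 10384 FPKM in CD, 9425, 7262 and 8012 in HFD, 6039, 8055 and 10362 in CD_DSS and 12007, 8321 and 8270.2 in HFD_DSS. Serpina1e did not pass, with log2 fold change -0.02, SE 0.16, limma adjusted p = 0.946 and an interval from -0.36 to 0.32. Serpina1d had 1459.5, 1431 and 1512 FPKM in CD, 1318, 1471 and 1443 in HFD, 1173, 1219 and 1203 in CD_DSS and 1182, 1008 and 1054 in HFD_DSS. Every DSS library was below every untreated one, and the level was 1.26-fold lower (log2 fold change -0.34, SE 0.074, limma adjusted p = 0.0106). Serpina1a, Serpina1b and Serpina1c did not pass, at -0.06, -0.18 and -0.20 on the log2 scale with limma adjusted p of 0.79, 0.175 and 0.095. Antisense B430119L08Rik covers 31.5% of the exon bases of Serpina1c.

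The summed Serpina1 level was 10555 to 17516 FPKM in single libraries, lowest in CD_DSS 1 and highest in HFD_DSS 1. Their coding sequences are 91.5 to 96.7% identical, with identical runs of up to 728 bases, so each single value is uncertain. Their 60 coding bases over the reactive centre loop differ at the 18 positions in capitals. The windows, on the minus strand of GRCm38 in the GENCODE transcripts, are chr12:103853757-103853816 for Serpina1a, chr12:103728324-103728383 for Serpina1b, chr12:103895094-103895153 for Serpina1c, chr12:103763762-103763821 for Serpina1d and chr12:103947100-103947159 for Serpina1e.
Serpina1a: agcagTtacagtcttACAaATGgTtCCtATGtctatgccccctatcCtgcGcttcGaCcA
Serpina1b: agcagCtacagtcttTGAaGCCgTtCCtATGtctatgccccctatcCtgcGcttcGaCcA
Serpina1c: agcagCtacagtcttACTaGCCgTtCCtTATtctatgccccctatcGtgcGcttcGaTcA
Serpina1d: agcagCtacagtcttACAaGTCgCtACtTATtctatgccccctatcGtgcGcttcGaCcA
Serpina1e: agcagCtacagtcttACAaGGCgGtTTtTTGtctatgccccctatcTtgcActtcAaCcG

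Agt, the angiotensin precursor and a serpin that is not known to inhibit proteases, had 246 to 377 FPKM over the 12 libraries and did not pass, with log2 fold change 0.18, SE 0.10, limma adjusted p = 0.254.

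Lrg1, a leucine-rich glycoprotein of plasma, had 207, 329 and 328 FPKM in CD, 899, 347 and 389 in HFD, 420.1, 1365 and 1555 in CD_DSS and 1672, 1097 and 1692 in HFD_DSS. Lrg1 rose 3.17-fold, with log2 fold change 1.66, SE 0.34, limma adjusted p = 0.00808, and HFD 1 was above CD_DSS 1. Il1r1, the receptor of interleukin-1, had 5.98, 8.93 and 10.6 FPKM in CD, 17.8, 5.45 and 6.98 in HFD, 13.5, 28.0 and 25.4 in CD_DSS and 33.7, 18.2 and 49.8 in HFD_DSS, and rose 2.80-fold with log2 fold change 1.49, SE 0.31, limma adjusted p = 0.00869. Both calls were kept with any 1 library left out. Il1rn, the receptor antagonist of interleukin-1, was low per length, with 0.206, 0.261 and 0.173 FPKM in CD, 0.775, 0.194 and 0.165 in HFD, 0.303, 0.828 and 0.823 in CD_DSS and 2.10, 0.455 and 0.922 in HFD_DSS. These values stand for 22 to 252 recovered fragments over 5535 exon bases. Il1rn was not tested, because it did not reach 1 FPKM in 3 libraries.

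The negative members did not move together. Rbp4, the retinol carrier, had 2127, 2048 and 2288 FPKM in CD, 2274, 2059 and 1975 in HFD, 1922, 1496 and 1523 in CD_DSS and 1602, 1657 and 1614 in HFD_DSS. Every DSS library was below every untreated one, and the level was 1.30-fold lower (log2 fold change -0.38, SE 0.089, limma adjusted p = 0.0137). Ttr (transthyretin, the partner of Rbp4 and a carrier of thyroxine) had 3569, 3561 and 3800.3 FPKM in CD, 3267, 3561 and 3198 in HFD, 4375, 2747 and 2937 in CD_DSS and 2366, 2335 and 1760.5 in HFD_DSS. Ttr missed the threshold, with log2 fold change -0.40, SE 0.13, limma adjusted p = 0.0514, and passed with limma-voom on recovered fragments (adjusted p = 0.0379). CD_DSS 1 had the highest Ttr level of all 12 libraries, while the 3 HFD_DSS libraries had the lowest.

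Alb, or albumin, the carrier that maintains oncotic pressure and the gene with the highest mean level of all, had 33020.1, 29220.1 and 28898 FPKM in CD, 22489, 26732 and 27134 in HFD, 37498, 35376 and 37498 in CD_DSS and 34336, 22390.1 and 16129.5 in HFD_DSS. Alb did not pass, with log2 fold change 0.073, SE 0.17, limma adjusted p = 0.802 and an interval from -0.30 to 0.44. Ahsg, or fetuin-A, an inhibitor of calcification, had 2911, 3417 and 3176 FPKM in CD, 2754, 2915 and 2849 in HFD, 3128, 4103 and 5208 in CD_DSS and 5585, 3594 and 3624 in HFD_DSS. Ahsg rose 1.37-fold, with log2 fold change 0.46, SE 0.15, limma adjusted p = 0.0499, at the edge of the threshold. Fetub, the related fetuin-B, had 225, 229 and 209.5 FPKM in CD, 197, 185 and 179 in HFD, 205, 307 and 354 in CD_DSS and 325, 240.3 and 273 in HFD_DSS. Fetub rose 1.37-fold, with log2 fold change 0.46, SE 0.13, limma adjusted p = 0.0284, and CD_DSS 1 was under every CD library. The Ahsg call was kept only without CD_DSS 1 or HFD_DSS 2 (highest adjusted p 0.11). The Fetub call was kept without 4 of the 12 libraries and lost without CD 2, CD 3, HFD 2, HFD 3, CD_DSS 2, CD_DSS 3, HFD_DSS 1 or HFD_DSS 3 (highest adjusted p 0.0697).

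On the CD diet alone, 2 of the 35 genes tested passed, Fga upward (log2 fold change 1.24, SE 0.31, limma adjusted p = 0.0479) and Serpina3k downward (log2 fold change -0.72, SE 0.14, limma adjusted p = 0.021), where 4.80% of all genes passed, 2.01% upward and 2.79% downward. At an unadjusted p under 0.05 there were 22, but the share of all genes at that threshold was not taken. All CD_DSS libraries were above all CD libraries in 15 of the 35 and below them in 4, against 12.6% and 14.4% of all genes tested. Fga was lost without any CD library and without 6 others (adjusted p from 0.00709 to 0.187 over the 12 libraries left out). Serpina3k was lost without CD 1, CD 2, CD 3, CD_DSS 2 or CD_DSS 3 (highest 0.081). Without CD_DSS 1, 23 of these genes passed on CD, where 11.8% of all genes did. That library was singled out by its values on these same genes, so the count is a description and no test.

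On HFD, 5 passed upward and 0 downward, where 1.73% and 3.10% of all genes passed (4.83% in all). At an unadjusted p under 0.05 there were 28, again without a share of all genes to set beside it. Passing upward were Fga (log2 fold change 1.28, SE 0.31, limma adjusted p = 0.041), Fgl1 (log2 fold change 2.42, SE 0.55, limma adjusted p = 0.0352), Cp (log2 fold change 0.94, SE 0.23, limma adjusted p = 0.0409), Apcs (log2 fold change 3.19, SE 0.79, limma adjusted p = 0.0446) and Itih4 (log2 fold change 1.48, SE 0.34, limma adjusted p = 0.0352). HFD_DSS libraries were all above all HFD libraries in 18 of the 35 and all below in 5, against 12.4% and 14.7% of all genes tested. Each of the 5 was lost without HFD 2, HFD 3, HFD_DSS 1 or HFD_DSS 3, among others, with a highest adjusted p between 0.144 and 0.172. The counts of these genes ran from 0 to 23 with 1 library left out, and were 15, 17 and 23 without HFD 1, HFD_DSS 2 and CD_DSS 1 in turn, where 6.87%, 8.13% and 8.37% of all genes passed. HFD 1, HFD_DSS 2 and CD_DSS 1 were singled out by their values on these same genes, so their counts are no test.

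The DSS effect was not shown to differ between the diets for any of the 35 genes: 0 passed the test of the difference with limma, 0 did so at an unadjusted p under 0.05 and 0 with limma-voom, where 0.00925% of all genes passed. Intervals were wide. For Lcn2 the effect was 3.39 on CD and 5.14 on HFD on the log2 scale, a difference of 1.75 with an interval from -2.80 to 6.30. For Orm1 the difference was 1.04 (interval -1.03 to 3.11), and for Fga it was 0.05 (interval -0.92 to 1.01).

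**Figure D5:**
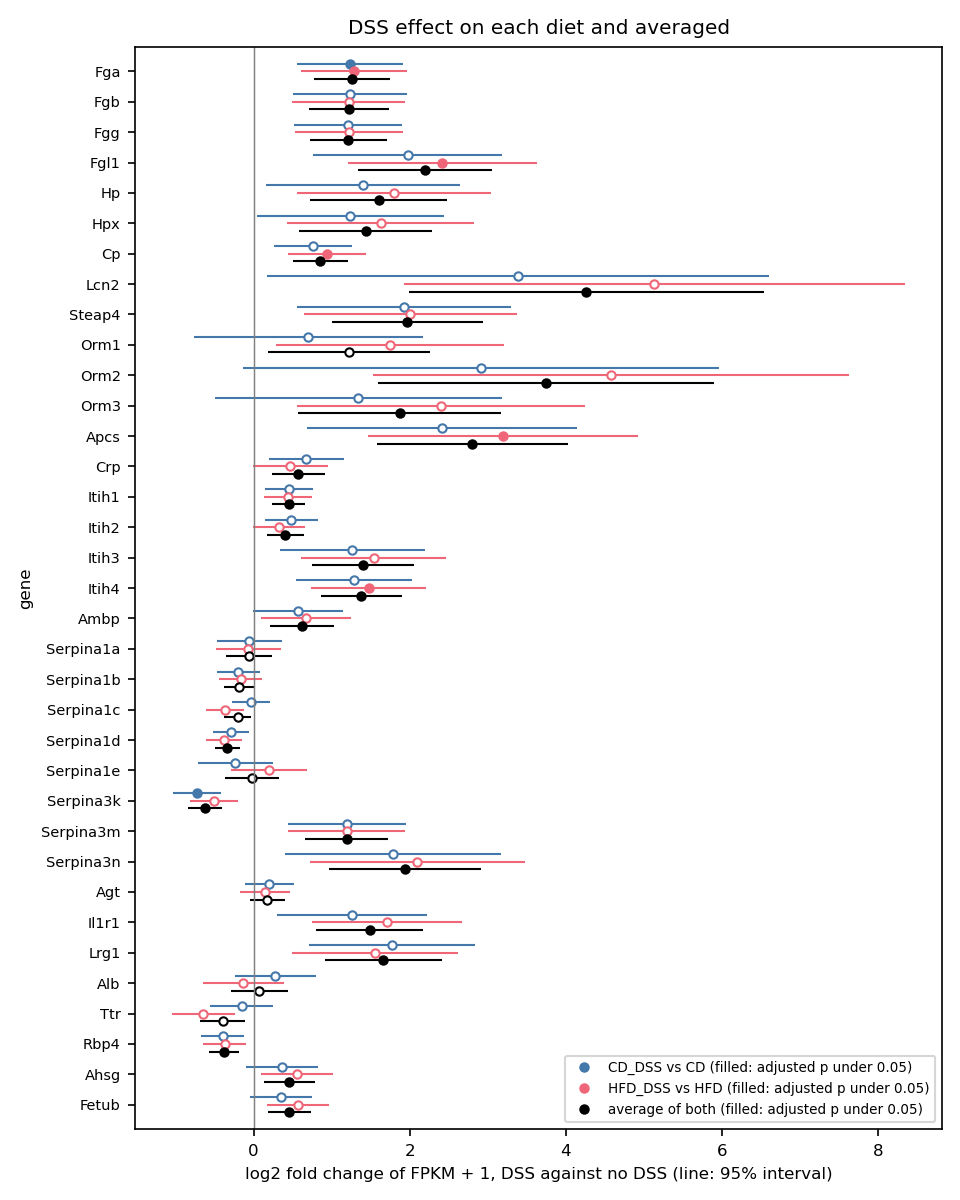
Log2 fold change of FPKM + 1 with DSS on CD (blue), on HFD (red) and averaged (black) for the 35 genes tested, with 95% intervals; filled points passed limma's test. Most black points of the positive members lie right of 0 with intervals that exclude it, Serpina3k, Serpina1d and Rbp4 lie left of 0, and the blue and red intervals overlap for each gene.

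Diet alone changed none of them detectably. Between HFD and CD without DSS, 0 of the 35 passed with limma, 0 did so at an unadjusted p under 0.05 and 0 with limma-voom, where 0.00925% of all genes passed. HFD libraries were all above all CD libraries in 2 of the 35 and all below in 2, against 6.58% and 6.54% of all genes tested. The largest differences were Steap4 (0.87, SE 0.62) and Lrg1 (0.81, SE 0.48) on the log2 scale, and HFD 1 held the highest value of both genes among the untreated libraries. With DSS, 0 of the 35 passed between HFD_DSS and CD_DSS with limma and 0 with limma-voom, where 0.102% of all genes passed, 0.0370% upward and 0.0648% downward, and 2 were under 0.05 unadjusted. Those 2 were negative members, and the share of all genes at this unadjusted threshold was not taken. Ttr was lower in HFD_DSS by a log2 difference of -0.62 (limma adjusted p = 0.248) and Alb by -0.67 (adjusted p = 0.328), and all HFD_DSS libraries were below all CD_DSS libraries in both. Serpina1c was also below in every library and Serpina3k above, where 8.97% and 7.53% of all genes were.

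Of 25 genes of the signalling that drives the response, 10 rose and 1 fell with DSS averaged over the diets, beside 8.72% and 11.2% of all genes. Socs3, the feedback inhibitor of JAK and STAT signalling, had 1.40, 1.22 and 0.939 FPKM in CD, 4.02, 1.04 and 2.23 in HFD, 7.67, 11.0 and 10.9 in CD_DSS and 14.7, 10.7 and 26.7 in HFD_DSS. Every DSS library was above every untreated one, CD_DSS 1 included, and Socs3 rose by 2.36 on the log2 scale (SE 0.24, limma adjusted p = 0.000527). Stat3 rose by 0.73, and the receptor chains Il6ra, Il6st and Osmr by 0.63, 0.54 and 0.47. Tnfrsf1a, Myd88, Hnf4a, Rela and Jak1 rose by 0.81, 0.64, 0.53, 0.28 and 0.23. The Rela call was lost without any of 8 of the 12 libraries left out in turn and the Jak1 call without any of 11, while the other 9 calls were kept. Lifr, the receptor chain for leukemia inhibitory factor, fell by 0.59. Cebpb, Cebpd and Nfkb1 did not pass, at -0.27, 0.44 and 0.00.

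Plasma proteins of hepatocytes that are not counted as acute phase genes here had a median log2 fold change of 0.12 over 25 tested. Of these, 6 rose (Pzp 0.88, Kng2 0.84, Kng1 0.71, Vtn 0.48, Serpinf2 0.44 and Cpn2 0.34) and 4 fell (Apoc3 -0.48, Igfals -0.44, Apoa2 -0.33 and Serpinf1 -0.33), beside 8.72% and 11.2% of all genes. With 1 library left out in turn, the calls of Vtn and Cpn2 were each lost in 9 of 12 cases, that of Serpinf2 in 8, that of Apoa2 in 7 and that of Igfals in 3, and the other 5 were kept.

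Markers of other cells moved with some of these values. The summed level of 12 macrophage markers was 297 to 479 FPKM without DSS, highest in HFD 1, and 340 (CD_DSS 1) to 622 FPKM with DSS, and 6 of the 12 rose. The summed level of 11 neutrophil markers was 1.91 to 4.03 FPKM in 5 untreated libraries and 24.8 in HFD 1, and with DSS it was 4.05 (CD_DSS 1), 5.97 (HFD_DSS 2) and 18.4 to 59.5 in the other 4. Of the neutrophil markers, Ly6g, Mpo, Elane, Cxcr2, Camp and Ltf were under 1 FPKM in every library. The 4 that were tested, S100a8, S100a9, Retnlg and Csf3r, each had a positive averaged log2 fold change. Their median was 1.17, and none passed. S100a9 had 14.0 FPKM in HFD 1, 14.2 in CD_DSS 2 and 33.2 in HFD_DSS 1. Hepatocyte markers summed to 3352 to 4630 FPKM without DSS and 2991 to 3525 FPKM with DSS. Of these 8 markers, Tat and Tdo2 fell by 0.87 and 0.76 on the log2 scale, Hnf4a rose as given above and the other 5 did not pass, with a median of 0.019 over the 8. The 6 endothelial markers summed to 29.1 (HFD 1) to 47.4 FPKM without DSS and 30.0 to 56.9 FPKM with DSS, and 1 rose and 1 fell. The 6 stellate markers summed to 26.2 to 46.6 FPKM without DSS and 41.1 to 49.3 FPKM with DSS, and 1 rose. The 4 adipocyte markers summed to 2.85 FPKM at most with Lep at 0 throughout, and the 4 lymphocyte markers to 0.936 FPKM at most. The part of these cells in the acute phase values was not tested.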

How the data were processed

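The deposited table held 1 FPKM value per gene and library, normalised to gene length and library by the authors. No source used here names the aligner or counter, and the submitters' processing notes give mm10 as the genome. Per the labels' protocols, a Qiagen RNeasy kit served for extraction and a SMARTer mRNA kit for the libraries. Groups and replicate numbers came from the labels. Of the columns, 4 had no name and no value and were not used.

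Values were analysed as log2(FPKM + 1), so changes of genes near 1 FPKM are understated. The 10806 genes that reached 1 FPKM in 3 or more libraries entered a single linear model of 4 group means with limma 3.58.1 in R 4.3.3, with a trended prior variance, two-sided, and Benjamini-Hochberg adjustment over all genes tested. The average DSS effect is the mean of the effects on both diets. FPKM times GENCODE exon length (GRCm38) gave whole fragments within 0.02 for 97.0 to 97.3% of values under 500 fragments, and hence the depth. The total by which the authors scaled was 0.927 to 1.05 times those fragments, so a scaling beyond depth is present. This ratio was highest in HFD_DSS 2 (1.05) and CD_DSS 1 (1.01) and lowest in HFD_DSS 1 (0.927) and CD_DSS 3 (0.938). A higher ratio gives lower FPKM, and its part in the differences between libraries was not tested. No replicate pair agreed within sampling noise (chi-square of 19.6 or more per gene). Coding sequences were aligned with MAFFT 7.526.

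The members, gene lists and tests were chosen with earlier results of these data known. Of genes outside the 36, the text names those on a list of regulators and a list of other plasma proteins that passed in any comparison, a few beside them as background, and cell markers. Alternatives were a pseudocount of 0.1, no filter, TPM scaling, the 2 groups alone, library weights, the replicate number as a block, limma-voom on recovered fragments, leaving out each library, and leaving out HFD 1, CD_DSS 1 and HFD_DSS 2 together, which was added after seeing the data.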

Additional observations from a re-analysis of the deposited data

How the results depend on the processing

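The averaged DSS effect called 27 acute phase genes; this count was 14, all higher, with no filter on low values, and 19 to 29 with 1 library left out. Counts on single diets depended strongly on the setting. On CD, 2 of these genes passed, and 0 with no filter, 8 with TPM scaling, 1 in a fit of the 2 groups alone, 25 with library weights, 1 with the replicate block, 6 with limma-voom, 26 without HFD 1, CD_DSS 1 and HFD_DSS 2, and 0 to 23 with 1 library left out. On HFD, 5 passed, and in the same order 0, 10, 0, 28, 0, 11, 27 and 0 to 23. The counts over all genes at these settings are in the next paragraph, and several of them moved widely too. Between HFD_DSS and CD_DSS 0 passed, and 4 without those 3 libraries. They were picked on these genes, so no count without those 3 libraries is a test. With 1 library left out, the count between HFD_DSS and CD_DSS was 0 to 0. It was the same for HFD against CD and for the difference between the DSS effects.

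Over all genes, the averaged effect called 2157, and 4259 with library weights, 3372 without the 3 libraries and 1312 to 2664 with 1 left out. The main fit tested 10806 genes, and the fit with no filter 25911. On CD 519 genes passed, and 157 with no filter, 398 with TPM scaling, 220 with 2 groups alone and 2592 with library weights. There were also 290 with the replicate block, 552 with limma-voom, 1924 without the 3 libraries and 63 to 1271 with 1 left out. On HFD 522 passed, and 130, 368, 122, 2820, 278, 548, 2027 and 9 to 904 in that order. For HFD against CD 1 passed, and 6 with no filter, 0 with TPM scaling, 6 with 2 groups alone, 66 with library weights, 3 with the replicate block, 2 without the 3 libraries and 0 to 3 with 1 left out. For HFD_DSS against CD_DSS 11 passed, and 5, 4, 147, 6, 79 and 3 to 28 with no filter, 2 groups alone, weights, block, 3 libraries left out and 1 left out. For the difference between DSS effects 1 passed, 0 with no filter, 0 without the 3 libraries and 0 to 2 with 1 left out. With TPM scaling the upward share moved from 41.8% to 61.8% on CD and from 35.8% to 66.8% on HFD. The cause of these shifts was not tested.

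Signs turned only for genes that did not pass (log2 fold changes; the span is over the libraries left out in turn). Serpina1a on CD (-0.18 to 0.082) became 0.050 with library weights and 0.082 without the 3 libraries. On HFD (-0.28 to 0.076) it became 0.036 without the 3, and averaged (-0.17 to 0.0092) 0.059 without the 3. Serpina1c on CD spanned -0.088 to 0.015. Averaged, Serpina1e (-0.11 to 0.080) became 0.0045 with TPM scaling, 0.064 with weights and 0.17 without the 3. Alb spanned -0.42 to 0.13 on HFD and -0.069 to 0.20 averaged, where it became -0.048 with weights.

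The replicate numbers only name the libraries: of 18 same-numbered pairs, 5 had deviations correlated above 0.1 (from -0.36 to 0.26), and 2 of 12 libraries correlated best with their own number. Under the block Orm3 (adjusted p = 0.0774), Ambp (0.0629), Ahsg (0.0865) and Fetub (0.0533) no longer passed in the averaged limma test. The lowest library of each acute phase gene held 22 recovered fragments or more, except Orm3 with 3, so Orm3 and Il1rn are the least precise.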
